A study of Psychotria grandis and Psychotria costivenia and Psychotria revoluta with 6 samples.

Results

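Leaf transcripts that were read in Psychotria costivenia but stood well below their level in P. grandis and P. revoluta made up 331 of the 45143 contigs counted. A contig is a transcript assembled from reads without a genome, and 1 gene can be represented by more than 1 contig. The members were chosen from the counts of all 6 libraries: the lowest CPM + 1 over the 4 P. grandis and P. revoluta libraries had to be at least 4 times the highest CPM + 1 over both P. costivenia libraries, with at least 1 count in P. costivenia. CPM is the count scaled by the library total to a common total. They were 0.733% of all contigs and 2.34% of the 14140 contigs whose lowest CPM + 1 elsewhere was 4 or more, so that a gap of this size could appear at all. These 14140 contigs are called the contigs of sufficient level here.

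The series compared 3 shrub species of the genus Psychotria from Cuba, with 2 wild plants per species and 1 leaf library per plant. The labels give nickel hyperaccumulator as the phenotype of P. grandis and P. costivenia and non-accumulator as that of P. revoluta, and gallery forest on serpentine soil as the habitat throughout. La Coca is the locality of P. costivenia, where both plants were collected on 12 June 2014. The P. grandis and P. revoluta plants came from Mil Cumbres, P. revoluta plant 1 on 27 July and the other plants on 27 June 2014. P. costivenia was therefore the only species of its locality and date, and species, locality and date cannot be told apart in its difference from the others. No plant was treated or grown in a garden, and age was not given in the labels used here. Per the series design text, reads of every species were set against a de novo transcriptome of a single P. grandis plant.

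Serpentine soils are rich in nickel and poor in calcium and other nutrients. Most plants on them keep the metal out of their leaves, while hyperaccumulators load it into the xylem bound to small ligands such as citrate, histidine or nicotianamine and store it in leaf vacuoles. The contigs carry running numbers that the files pair with no gene name, so no function can be given to a member, and 6 contigs are named by number. By the rule itself, the members are low in 1 labelled hyperaccumulator and high in the other as well as in the non-accumulator. Because the reference is that of P. grandis, sequence divergence of P. costivenia can lower a count as well as a lower transcript level can, which was not tested.

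Library totals ran from 45676087 to 57907913 counts, so that 3 counts, the limit that a count of 0 allows, correspond to 0.0518 to 0.0657 CPM in a library and to 0.0316 CPM over both P. costivenia plants. P. grandis plant 1 had reads on 45142 contigs, against 35362 to 38589 in the other libraries. Differences between conspecific plants far exceeded counting noise, with a chi-square per contig of 62.7 in P. revoluta, 97.4 in P. costivenia and 682 in P. grandis where counting alone would give about 1. P. grandis plant 1 stood apart: across contigs, the Pearson correlation of log2(CPM + 1) was 0.851 between the P. grandis plants, while P. grandis plant 2 correlated at 0.960 and 0.963 with P. revoluta plants 1 and 2. The size of the group and the contrast of P. grandis with P. revoluta are therefore also given without P. grandis plant 1. The headers of the P. revoluta tables use another species prefix than the labels do, and the labels were followed.

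The rule admits only contigs with a CPM + 1 of at least 4 in every P. grandis and P. revoluta library. The levels of the members are therefore given as a description. The median member stood at 28.1 and 24.7 CPM in P. grandis plants 1 and 2 and at 27.8 and 24.5 CPM in P. revoluta plants 1 and 2. In P. costivenia it stood at 0.855 CPM in plant 1 and 0.621 CPM in plant 2. The lower quartile lay at 11.3 and 13.7 CPM for P. grandis plants 1 and 2 and at 12.3 and 11.1 CPM for P. revoluta plants 1 and 2, and the upper quartile at 65.0, 60.0, 72.6 and 59.1 CPM in the same order. They were 0.0855 and 3.57 CPM in P. costivenia plant 1, and 0.0414 and 2.71 CPM in P. costivenia plant 2. The upper quartile in P. costivenia thus lay under the lower quartile of every other library. In P. grandis and P. revoluta no member had fewer than 151 counts in any library, so counting error was small on the upper side of the gap. Differences between plants of a species, given below, are not covered by this. Summed, the 331 contigs took 3.44% and 2.54% of all counts in the P. grandis plants, 3.53% and 3.14% in those of P. revoluta, against 0.214% and 0.144% in the P. costivenia plants. In bulk leaf tissue, fewer cells that express a transcript and less transcript per cell cannot be told apart.

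**Figure D1:**
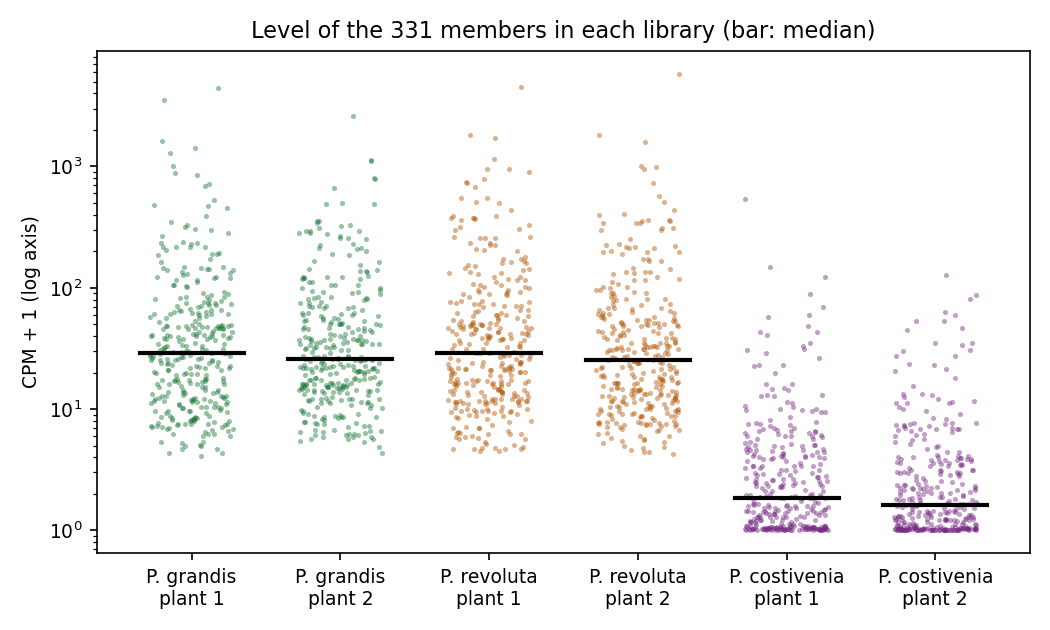
CPM + 1 of the 331 members (log axis) in each of the 6 libraries, 1 point per contig, with the median as a black bar and points spread sideways for legibility. The medians of CPM lie between 24.5 and 28.1 in the 4 P. grandis and P. revoluta libraries and at 0.855 and 0.621 in P. costivenia, a difference that the choice of members fixes.

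A few members carried much of this. The member with the most reads reached 3518 and 2616 CPM in the P. grandis plants, 4535 and 5831 CPM in the P. revoluta plants, and 535.8 and 26.2 CPM in the P. costivenia plants. It was high in all 4 libraries outside P. costivenia, and the P. costivenia plants differed from each other 20.5-fold. The next had 4418 and 669 CPM in P. grandis, 1703 and 983 CPM in P. revoluta, and 148 and 125 CPM in P. costivenia. Here the spread lay in P. grandis, whose plant 1 was the highest library, and the P. costivenia plants were close to each other. Another had 1009 and 1129 CPM in P. grandis, 1819 and 1801 CPM in P. revoluta, and 58.2 and 85.5 CPM in P. costivenia. Plants of a species were within 2-fold of each other for this contig, with P. revoluta highest. The 3 most abundant members of a library made up 19.1% to 29.3% of the members' summed CPM in the 4 other libraries, 37.5% in P. costivenia plant 1 and 20.1% in P. costivenia plant 2.

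The gap itself is what chose the members and is given as a description. The ratio of the lowest CPM + 1 elsewhere to the highest in P. costivenia had a median of 6.13, quartiles of 4.75 and 8.72, and a highest value of 115.6. It lay between 4 and 5 for 109 members (32.9%), between 5 and 8 for 124 (37.5%), between 8 and 16 for 68 (20.5%), between 16 and 32 for 16 (4.83%) and at 32 or more for 14 (4.23%). Most members thus sat near the threshold, and a small tail lay far from it. Just inside, ratios of 4.002, 4.007 and 4.01 belonged to contigs with 3.996, 15.003 and 5.58 CPM as the lowest level elsewhere. Their highest levels in P. costivenia were 0.248, 2.99 and 0.642 CPM. Just outside, ratios of 3.98, 3.97 and 3.96 belonged to contigs with 15.02, 4.45 and 24.9 CPM elsewhere and 3.02, 0.372 and 5.54 CPM in P. costivenia, so the values on both sides of the threshold overlapped. The added 1 understates the difference of low contigs: the ratio of the mean CPM of the 4 other libraries to the mean CPM of P. costivenia had a median of 31.6, and it was at least 10 for 295 members (89.1%).

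**Figure D2:**
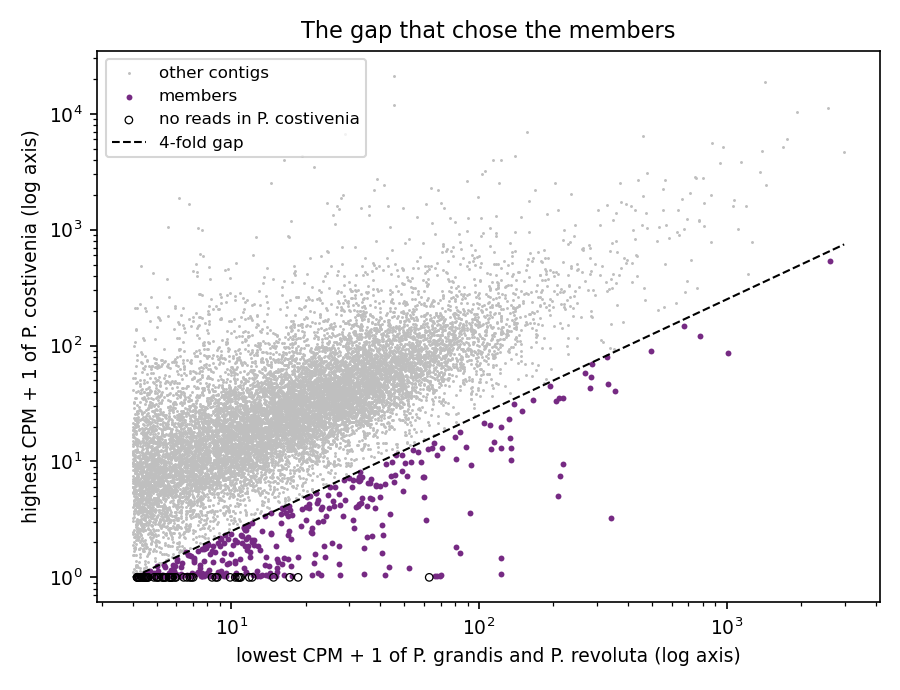
Highest CPM + 1 in P. costivenia against lowest CPM + 1 in P. grandis and P. revoluta (both axes log) for the 14140 contigs of sufficient level, with the 331 members in purple, the 54 contigs without reads in P. costivenia as open circles and the 4-fold threshold as a dashed line. The members form a fringe below the main cloud, densest next to the line, and reach to the highest levels elsewhere, while the open circles crowd at the lowest levels.

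The largest gap belonged to Pgra_v1_contig_119, at 122.0 and 210.3 CPM in P. grandis, 317.7 and 200.0 CPM in P. revoluta, and 0.0642 and 0.0207 CPM in P. costivenia, where it had 3 and 1 counts. All 4 libraries outside P. costivenia were high, P. revoluta plant 1 the highest and P. grandis plant 1 the lowest. Its P. costivenia level was next to nothing, at 0.0421 CPM over both plants with an exact Poisson interval (95%, counting error only) of 0.0115 to 0.108 CPM. The second largest belonged to Pgra_v1_contig_67, at 1299 and 342.0 CPM in P. grandis, 787 and 403 CPM in P. revoluta, and 0.941 and 2.26 CPM in P. costivenia, from 44 and 109 counts. This contig was plainly read in both P. costivenia plants, and its P. grandis and P. revoluta libraries overlapped. On the TMM scale of edgeR the log2 fold changes of Pgra_v1_contig_119 were -12.21 against P. revoluta (SE 0.77) and -11.61 against P. grandis (SE 0.76). Those of Pgra_v1_contig_67 were -8.24 (SE 1.19) and -8.82 (SE 1.22). As the members were picked for this difference in these libraries, these values are a description and carry no p.

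What was left in P. costivenia ranged from 1 to 26322 counts over both plants. Only 1 to 3 counts over both plants were found for 58 members (17.5%), and 4 to 9 counts for 26 (7.85%). These 84 contigs were hardly read in P. costivenia, and their lowest levels elsewhere were also low at the median, with 6.62 and 7.42 CPM. They were not low throughout, as the highest values were 69.2 and 122.0 CPM, the latter that of Pgra_v1_contig_119. Between 10 and 99 counts were found for 99 members (29.9%), between 100 and 999 for 118 (35.6%) and 1000 or more for 30 (9.06%). The lowest level elsewhere rose along these groups, with medians of 9.85, 30.5 and 198 CPM, which follows from a fixed minimum ratio. The ratio of mean CPM elsewhere to mean CPM in P. costivenia had medians of 752 and 263 in the groups with 1 to 3 and 4 to 9 counts, and of 48.1, 14.0 and 11.1 in the others. This ratio divides by the P. costivenia level that defines the groups, and the rule sets a minimum level elsewhere. Its fall along the groups therefore follows from the choice and the grouping, and nothing is read from it. In the lowest group the ratio is imprecise: with counts pooled over both plants its median was 759, and 186 or 19401 with each contig at the upper or lower end of its exact Poisson interval in P. costivenia (95%, counting error only). In the group with 4 to 9 counts the same values were 266, and 125 or 828. On the CPM + 1 scale of the rule, where the added 1 limits the ratio of low contigs, the median gap was 7.46 and 7.69 in the groups with the fewest counts and 6.20, 5.50 and 5.42 in the others.

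The residual reads were mostly seen in both P. costivenia plants. Of the 331 members, 273 (82.5%) had reads in both, 40 in plant 1 alone and 18 in plant 2 alone, with at most 78 counts where 1 plant had none. At least 1 CPM in both plants was reached by 131 members, and at least 10 CPM in both by 24. Plant 1 had the higher CPM for 214 members (64.7%), against 51.3% of the contigs of sufficient level. The summed CPM of the members was 2144 in plant 1 and 1443 in plant 2, and 1608 and 1417 without the member with the most reads, described above. Among the 209 members with at least 10 counts in each plant, the CPM differed at least 2-fold between the plants for 51 (24.4%) and at least 4-fold for 15. The most uneven of these stood at 39.6 CPM in plant 1 and 0.559 CPM in plant 2, a 70.8-fold difference, with 889 and 355 CPM in P. grandis and 391 and 439 CPM in P. revoluta. For this contig the reduction in P. costivenia plant 2 was far deeper than in plant 1. Among members with reads in both plants, the opposite extreme stood at 0.0642 CPM in plant 1, from 3 counts, and 6.39 CPM in plant 2, from 309 counts. It had 36.6 and 31.7 CPM in P. grandis and 41.8 and 48.6 CPM in P. revoluta, all close together.

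**Figure D3:**
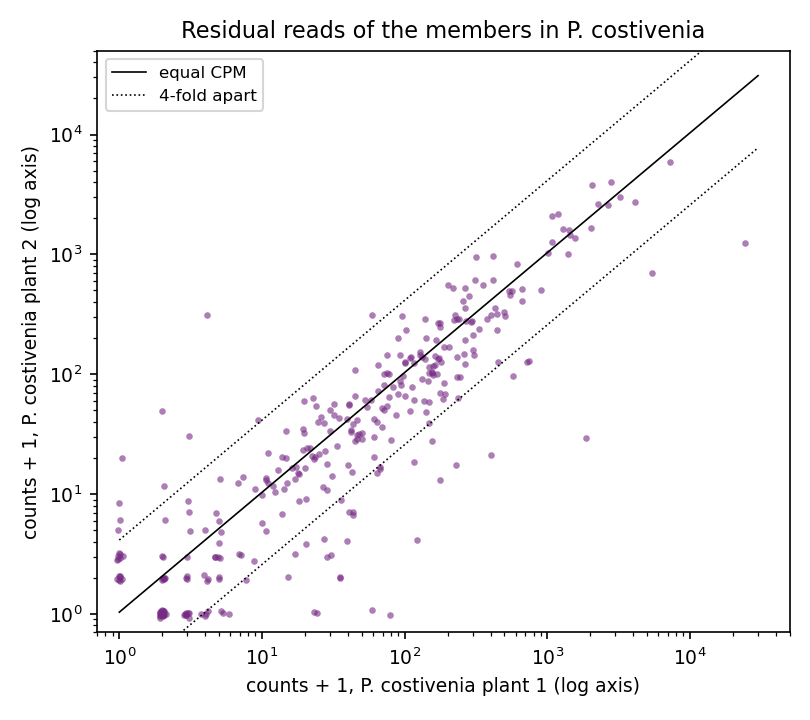
Counts + 1 of the 331 members in P. costivenia plant 2 against plant 1 (both axes log, points moved slightly at random so that equal counts can be seen), with a solid line at about equal CPM and dotted lines about 4-fold apart. Most members lie between the dotted lines from the lowest to the highest counts, and more of those outside lie on the side of plant 1.

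Compared with the contigs of sufficient level, large differences between plants of P. costivenia and of P. revoluta were more frequent among the members, and those between the plants of P. grandis about as frequent. On the CPM + 1 scale, the P. costivenia plants differed at least 2-fold in 28 members (8.46%), against 5.32% of the contigs of sufficient level. They differed at least 4-fold in 9 members (2.72%), against 1.29%, although low levels shrink differences on this scale. The P. revoluta plants differed at least 2-fold in 21 members (6.34%), against 2.04% of the contigs of sufficient level. At 4-fold these were only 2 members (0.604%), against 0.240%. The P. grandis plants differed at least 2-fold in 103 members (31.1%) and at least 4-fold in 30 (9.06%), against 33.8% and 9.13%. The direction in P. grandis was even, with plant 1 higher in 17 of these 30 members and plant 2 in 13. Among the 1291 contigs of sufficient level with a 4-fold difference, plant 2 was the higher in 1009. These shares are descriptions without a test, and the rule bounds the members from below in P. grandis and P. revoluta.

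P. grandis plant 1 set the size of the group more than any other library. When the rule was applied without it, 956 contigs met it instead of 331. The 625 contigs that this library alone kept out had medians of 17.5 CPM for P. grandis plant 2, 22.6 and 21.0 CPM in P. revoluta, and 1.09 and 1.10 CPM in the P. costivenia plants; in P. grandis plant 1 the median was 1.72 CPM. The low median of P. grandis plant 1 follows from how these contigs were found. In 217 of the 625 contigs (34.7%), P. grandis plant 1 was not above the higher P. costivenia plant. The same held for 1 of the 50 contigs that P. grandis plant 2 alone kept out, and for 0 of 24 and 1 of 33 kept out by P. revoluta plants 1 and 2. Leaving out any other library in turn gave 355 to 454 contigs. P. grandis plant 1 was the lowest of the 4 libraries for 125 members (37.8%), P. grandis plant 2 for 82 (24.8%), P. revoluta plant 2 for 80 (24.2%) and P. revoluta plant 1 for 44 (13.3%). Among the contigs of sufficient level these shares were 49.9%, 11.4%, 21.3% and 17.4% in the same order. P. grandis plant 1 was thus the lowest library less often among the members, and P. grandis plant 2 more often. As the rule bounds the lowest of these libraries, these shares depend on the choice and nothing about the members is read from them.

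A library left out of the choice gives values that the choice did not use. They were set against libraries that the choice did use, so only 1 side of each comparison is new. Every contig that held the 4-fold gap in the left-out library is 1 of the 331 members. When a P. grandis or P. revoluta library is left out, these are all 331 members, so the share only restates the number chosen. The shares that held the gap are therefore no independent support for it. Chosen without P. costivenia plant 1, 454 contigs met the rule, and in that plant 291 of them (64.1%) also lay at least 4-fold below the 4 other libraries, and 440 (96.9%) lay below all 4. Chosen without P. costivenia plant 2, 415 contigs met it, of which 313 (75.4%) held the 4-fold gap in plant 2 and 386 (93.0%) lay below all 4. Among all contigs that could have been chosen in the same way, 3.01% and 3.48% held the 4-fold gap in the left-out plant, and 33.0% and 33.5% lay below all 4 libraries. Contigs chosen as low in 1 plant of P. costivenia thus mostly lay below the same 4 libraries in the other plant too, a part of them under the 4-fold mark. The contigs that could have been chosen were not matched to them for level in those 4 libraries. The shares are therefore descriptions without a test. On the other side, the gap held in the left-out library for 86.9% of 381 contigs chosen without P. grandis plant 2, and for 93.2% of 355 and 90.9% of 364 chosen without P. revoluta plant 1 or 2. It held in P. grandis plant 1 for 34.6% of the 956 contigs chosen without it, and 739 of these (77.3%) were higher there than in both P. costivenia plants, against 40.9% of all contigs that could have been chosen in the same way. For the other 3 libraries that share was 99.7% to 100% of the contigs chosen, against 51.8% to 55.8%. Background shares of the 4-fold gap for these 4 libraries were 5.58% to 6.71%.

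**Figure D4:**
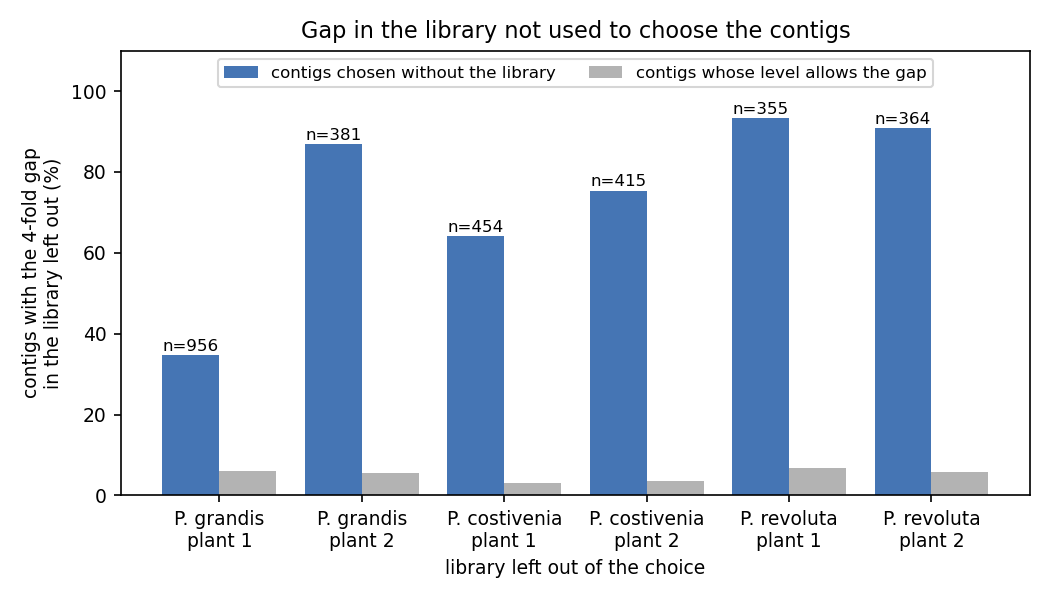
Percentage of contigs with the 4-fold gap in a library that was left out of the choice (blue, with the number chosen), beside the percentage among all contigs whose level in the remaining libraries allowed the gap (grey), for each of the 6 libraries. Blue bars run from 34.6% for P. grandis plant 1 to 93.2% for P. revoluta plant 1, and grey bars from 3.01% to 6.71%. The contigs that held the gap in the blue bars are all members, so the bars are no independent support for the gap.

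P. grandis and P. revoluta were then set against each other, to ask whether the species in which the members were high differed, a contrast that the rule does not set. Mean levels were within 2-fold for 257 members (77.6%), P. grandis was more than 2-fold higher in 47 (14.2%) and P. revoluta in 27 (8.16%), on the CPM + 1 scale. Among the contigs of sufficient level these shares were 82.1%, 12.0% and 5.95%, so that differences of this size were slightly more frequent among the members in each direction. With P. grandis plant 2 alone set against the P. revoluta mean, 274 members were within 2-fold (82.8%), 27 were higher (8.16%) and 30 lower (9.06%) in P. grandis. The shares of the contigs of sufficient level were then 92.8%, 5.33% and 1.88%, a wider distance from the members than with both plants. With P. grandis plant 1 alone, 62.8% of the members and 58.1% of those contigs were within 2-fold. P. grandis was then higher in 19.0% of the members against 17.1% of those contigs, and P. revoluta in 18.1% against 24.8%. With this plant alone, differences towards P. revoluta were thus less frequent among the members. The median log2 fold change of the members in edgeR was 0.00, with quartiles of -0.53 and 0.71, against a median of -0.02 over the contigs of sufficient level and 0.13 over the 35660 contigs tested. Without P. grandis plant 1 the medians were -0.15 for the members, -0.03 for the contigs of sufficient level and 0.02 for all contigs tested. By sign, with all plants, P. grandis was the higher species in 166 members and P. revoluta in 165.

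In the test over all contigs 0 members passed an adjusted p of 0.05 between P. grandis and P. revoluta (edgeR), and the share called among all 35660 contigs was 0% in either direction too. At an unadjusted p of at most 0.05, 25 members were higher (7.55%) and 14 lower (4.23%) in P. grandis, against 18.2% and 2.34% of all tested contigs and 10.6% and 2.75% of the contigs of sufficient level. DESeq2, a second tool, called 21 members higher (6.34%) and 13 lower (3.93%) by adjusted p, against 14% and 1.45% of all contigs and 6.12% and 1.68% of those of sufficient level. With plant 1 of P. grandis left out, edgeR called 3 members higher (0.906%) and 0 lower, where it called 1.4% and 0.0531% of all contigs tested and 0.636% and 0.0283% of those of sufficient level. With plant 2 left out it called 40 members higher (12.1%) and 38 lower (11.5%), below the 19.2% and 18.3% of all contigs tested and the 17.8% and 24.9% of those of sufficient level. In both fits the single P. grandis plant is assumed to vary like the plants of the other species.

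The libraries of both species did not overlap for 77 members higher (23.3%) and 104 lower (31.4%) in P. grandis. The same held for 33.3% and 26.9% of all tested contigs and for 28.3% and 29.2% of those of sufficient level. P. grandis plant 2 by itself lay above both P. revoluta plants for 117 members (35.3%) and below both for 160 (48.3%), against 44.0% and 37.4% of the contigs of sufficient level. For P. grandis plant 1 by itself these numbers were 133 (40.2%) and 151 (45.6%), against 39.9% and 53.1%. The members thus leaned towards the lower side in P. grandis plant 2, where the contigs of sufficient level leaned towards the higher. In P. grandis plant 1 the members lay below both P. revoluta plants less often than those contigs, and above both about as often. The rule takes the lowest of the 4 libraries, which was P. grandis plant 1 in 49.9% of the contigs of sufficient level. It therefore does not act evenly on the 2 P. grandis plants. These shares are descriptions without a test of their difference.

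A few members departed from this balance by a large amount. Those named for this contrast were chosen among members whose P. grandis and P. revoluta libraries do not overlap. Together with the rule, this choice fixes the order of the 3 species in them. Pgra_v1_contig_206 had 203 and 14.0 CPM in P. grandis, 3.54 and 4.67 CPM in P. revoluta, and 0.0855 and 0.0207 CPM in P. costivenia, from 4 and 1 counts. P. grandis plant 1 was far above all other libraries, and P. grandis plant 2 still lay above P. revoluta. Its log2 fold change between P. grandis and P. revoluta was 4.87 (SE 1.37) and did not pass (adjusted p = 0.154 by edgeR, 0.00117 by DESeq2). Pgra_v1_contig_6079 had 235 and 75.7 CPM in P. grandis, 20.1 and 8.96 CPM in P. revoluta, and 0.577 and 0.0414 CPM in P. costivenia. The 3 species formed 3 steps without overlap, as the choice requires. The contrast of P. grandis with P. revoluta missed the threshold with a log2 fold change of 3.53 and an SE of 1.16 (adjusted p = 0.189 by edgeR, 0.0167 by DESeq2). Both fold changes fell when P. grandis plant 1 was left out, that of Pgra_v1_contig_206 far more than that of Pgra_v1_contig_6079. Without that plant the log2 fold change of Pgra_v1_contig_206 was 1.72 (SE 0.53, adjusted p = 0.205 by edgeR) and that of Pgra_v1_contig_6079 was 2.34 (SE 0.95, adjusted p = 0.302 by edgeR). With plant 1 as the only P. grandis plant they were 5.66 and 4.09, and both passed in edgeR (adjusted p = 0.00299 and 0.0356).

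In the opposite direction, Pgra_v1_contig_20231 had 10.5 and 36.0 CPM in P. grandis, 551 and 230.0 CPM in P. revoluta, and 0.727 and 0.0207 CPM in P. costivenia. P. revoluta was the high species, and P. grandis lay between it and P. costivenia. The log2 fold change of P. grandis against P. revoluta was -4.06 (SE 1.35) and did not pass (adjusted p = 0.192 by edgeR, 0.0107 by DESeq2). Pgra_v1_contig_7586 had 20.2 and 49.5 CPM in P. grandis, 436 and 196 CPM in P. revoluta, and 1.43 and 0.331 CPM in P. costivenia. It showed the same 3 steps without overlap, again fixed by the choice, and its log2 fold change of -3.16 (SE 0.86) missed the threshold (adjusted p = 0.145 by edgeR, 0.00217 by DESeq2). Without P. grandis plant 1 the log2 fold changes of Pgra_v1_contig_20231 and Pgra_v1_contig_7586 were -3.48 and -2.72 (adjusted p = 0.272 and 0.247 by edgeR), and with it as the only P. grandis plant -5.13 and -3.89 (adjusted p = 0.0634 and 0.0502). Over all alternatives run, the adjusted p of these 4 contigs in this contrast ranged from 0.00117 to 0.754.

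The contrasts with P. costivenia are the ones that the rule used, so the counts of calls in them are set by the choice of members and nothing is read from them. They are 299 of the 331 members below P. revoluta in edgeR, where 6.8% of all 35660 contigs were called lower, and 236 below P. grandis, where 1.83% were. DESeq2 called 330 and 329, with 17% and 13.3% of all contigs. Without any 1 plant of P. costivenia or P. revoluta, 0 members passed in edgeR in either contrast, with 312 to 328 at an unadjusted p of 0.05 or less. With all plants 328 reached that unadjusted p in each contrast, with 17.6% and 15.6% of all contigs.

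Contigs with the same gap but no read in P. costivenia were fewer and lower. There were 54, with a median lowest level elsewhere of 4.66 CPM against 15.4 CPM for the members, and the median member reached 29.3 CPM in P. grandis and 26.7 CPM in P. revoluta where the unread contigs reached 7.88 and 7.48 CPM. Where the lowest level elsewhere was under 10 CPM, 112 members stood beside 48 unread contigs. From 10 to 30 CPM the numbers were 113 and 5, from 30 to 100 CPM 71 and 1, and above 100 CPM 35 and 0. Among contigs of sufficient level the members were 2.23%, 2.09%, 2.27% and 6.10% in these 4 ranges of level. The highest range held 574 contigs. The mirrored rule, with both P. costivenia plants at least 4-fold above all others, met 300 contigs, with medians of 29.6 CPM in P. costivenia, 1.99 CPM in P. grandis and 0.836 CPM in P. revoluta. At their high side these contigs were as abundant as the members.

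The contig number was not part of the rule. The members' numbers ran from 9 to 32571 with a median of 6667, against a median of 8990.5 for the contigs of sufficient level, 10590.5 for the unread contigs, 21488 for those higher in P. costivenia and 22572 for all. What order the numbers follow is not given in the sources used here. Members also stood next to each other by number. Of 227 members whose next number was a contig of sufficient level, 13 (5.73%) were followed by another member, against 2.38% of 8893 other contigs of sufficient level. One run of 3 consecutive numbers stood at 39.7, 33.3 and 47.1 CPM in P. grandis plant 1, and at 55.1, 39.2 and 33.9 CPM in plant 2. The same contigs stood at 57.5, 43.1 and 27.7 CPM in P. revoluta plant 1 and at 47.8, 36.9 and 24.5 CPM in plant 2. In P. costivenia they stood at 0.0428, 0.171 and 0.0214 CPM in plant 1 and at 0.621, 0.807 and 0.973 CPM in plant 2. All 3 were thus low in both P. costivenia plants and lower in plant 1, and at similar levels in the other species. Whether consecutive contigs are parts or copies of 1 gene cannot be read from the numbers, and reads that match several contigs could be split between them, so their counts are uncertain. Of the 13 neighbouring pairs, 2 kept within 2-fold of each other in all 6 libraries on the CPM + 1 scale, and both lie in the run described above. Another run of 3 consecutive numbers was less alike. It stood at 28.2, 30.1 and 115.7 CPM in P. grandis plant 1 and at 7.72, 18.0 and 49.1 CPM in P. revoluta plant 1. In P. costivenia plant 1 it stood at 0.535, 0.0428 and 1.69 CPM. P. costivenia plant 2 was the lower plant for this run, at 0.0621, 0.0207 and 0.559 CPM.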

How the data were processed

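Per the labels' protocols, RNA came from RNAlater-stabilized leaves of 1 plant each, was DNase-treated and entered stranded mRNA libraries (Illumina TruSeq). The deposited tables, 1 for each plant, hold raw counts of reads by contig, per the file headers, and no source used here gives the aligner, the counter, the use of strand or the handling of reads that match several contigs. CPM was computed from library totals in Python 3.11.15 (pandas 2.3.3). Counts were tested in R 4.3.3 with edgeR 4.0.16. The filter filterByExpr (minimum count 10, minimum total 15) left 35660 contigs and all 331 members, TMM set the scaling, and a quasi-likelihood model of species was fitted over the 6 libraries together. The 3 contrasts were two-sided, with Benjamini-Hochberg adjustment over all tested contigs and a threshold of 0.05. SEs of log2 fold changes were approximated as their size over the square root of F. DESeq2 1.42.0, other scalings, another filter, models of 2 species, a block and leave-one-out fits were the alternatives. The libraries of a species came from separate wild plants.

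The 2 members with the largest gap were named, and, among those whose P. grandis and P. revoluta libraries did not overlap, the 2 with the largest fold change in each direction. Members described without a number were chosen after their values were seen. The members, the rule and the alternatives were chosen with earlier results of these data known.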

Additional observations from a re-analysis of the deposited data

How the results depend on the processing

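The number of contigs meeting the rule was 269 with TMM-scaled CPM, 459 with CPM + 0.5, 247 with at least 10 counts in P. costivenia and 385 with unread contigs included. It moved to 860 with CPM + 0.1, to 1277 with a 2-fold gap and to 98 with an 8-fold gap, and it was 355 to 956 when 1 plant was left out, the highest without P. grandis plant 1. Against P. revoluta, the members called lower in P. costivenia numbered 294 to 330 in the other fits of all libraries and in the model of these species, 194 with the plant number as a replicate block, and 0 to 326 with 1 plant left out. Against P. grandis they numbered 224 to 329 in the other fits of all libraries, 0 with the block, 0 in the model of these species, and 0 to 316 with 1 plant left out. For P. grandis against P. revoluta it was 0 in every fit of all libraries in edgeR, block included, 34 in DESeq2, and 0 to 78 with 1 plant left out. The cause of these changes was not tested. The plants share only a number: differences between plants 1 and 2 correlated across contigs at 0.115 for P. grandis with P. costivenia, -0.06 for P. grandis with P. revoluta and 0.0142 for P. costivenia with P. revoluta. Of 216 refits of the log2 fold changes of named contigs, 154 kept direction and side of the threshold, 35 lost the call, 26 gained it and 1 turned: Pgra_v1_contig_67 in P. grandis against P. revoluta, which was 0.59 with all plants and -0.84 to 1.20 with 1 plant left out, the lowest without P. grandis plant 1, and never past the threshold. With 2 plants per species the spread rests on 3 residual degrees of freedom, and members with 1 to 3 counts in P. costivenia have no precise level there.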
